A study of Rattus norvegicus with 9 samples.

Results

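The 34 genes described here are the p53 regulator Mdm2, cell cycle inhibitors, growth arrest genes and the genes of the apoptosis machinery, measured in the left ventricle of the rat heart. They were taken from a listing by symbol, and each had a row of that name among the 19294 genes with values. All 34 had values and a mean over the samples of at least 1 FPKM (fragments scaled to transcript length and library total), the minimum for a test, as did 12451 genes in all. The genes were not picked by a cut on their values in these samples, but earlier results of these data were known.

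Messenger RNA of the left ventricle had been sequenced in 9 samples of 3 groups with 3 samples each. SHR_OMT were spontaneously hypertensive rats that received oxymatrine, a quinolizidine alkaloid of Sophora roots. SHR were untreated rats of the same inbred strain, in which high blood pressure is inherited. WKY were Wistar Kyoto rats, the normotensive strain usually set beside SHR. The sources used here give neither the animals' age nor the dose, length of treatment or hour of sampling. Nothing in the labels says that replicates were separate animals, and the p-values then measure only how these samples scatter.

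The transcription factor p53 accumulates when DNA is damaged or a cell is stressed, and Mdm2, itself a p53 target, marks it for degradation. Among its targets are Cdkn1a, which encodes the cyclin-dependent kinase inhibitor p21, and Bax, Bbc3 and Pmaip1, which encode proteins that open the outer mitochondrial membrane or unleash those that do. Released cytochrome c then joins Apaf1 and caspase 9, and Diablo lifts the block that Xiap places on caspases. Adult heart muscle cells have largely left the cell cycle, and many genes of this set, among them Cdkn1a, the Gadd45 genes and Bnip3, also answer to signals other than p53, such as growth factors, glucocorticoids and low oxygen.

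The 9 libraries summed to 587526 to 606633 FPKM, between 12231 and 12514 genes reached 1 FPKM in each, and log2(FPKM + 1) correlated across genes at 0.988 to 0.991 within groups. The 7 cardiomyocyte markers looked at were present in every library and together held 39716 to 43884 FPKM in SHR_OMT, 42963 to 46190 in SHR and 41431 to 42365 in WKY. Differences below are of log2(FPKM + 1), which understates the change of low genes, and a gene is said to have risen or fallen where its limma p, adjusted by Benjamini-Hochberg over the 12451 genes, was under 0.05.

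Levels in the set spanned more than 2 orders of magnitude. Ccng1, which encodes cyclin G1, a p53 target, was the highest at a mean of 435 FPKM over the 9 libraries. Bnip3 followed at 222 FPKM, then the survival factor gene Mcl1 at 82.5 and Gadd45a at 60.6 FPKM. Bcl2, at 2.46 FPKM, and Casp6, at 1.05 FPKM, were the lowest. The plot of levels shows that the spread between libraries was small beside the spread between genes, with the libraries of Cdkn1a, Gadd45g, Gadd45b and Casp6 lying visibly apart.

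**Figure D1:**
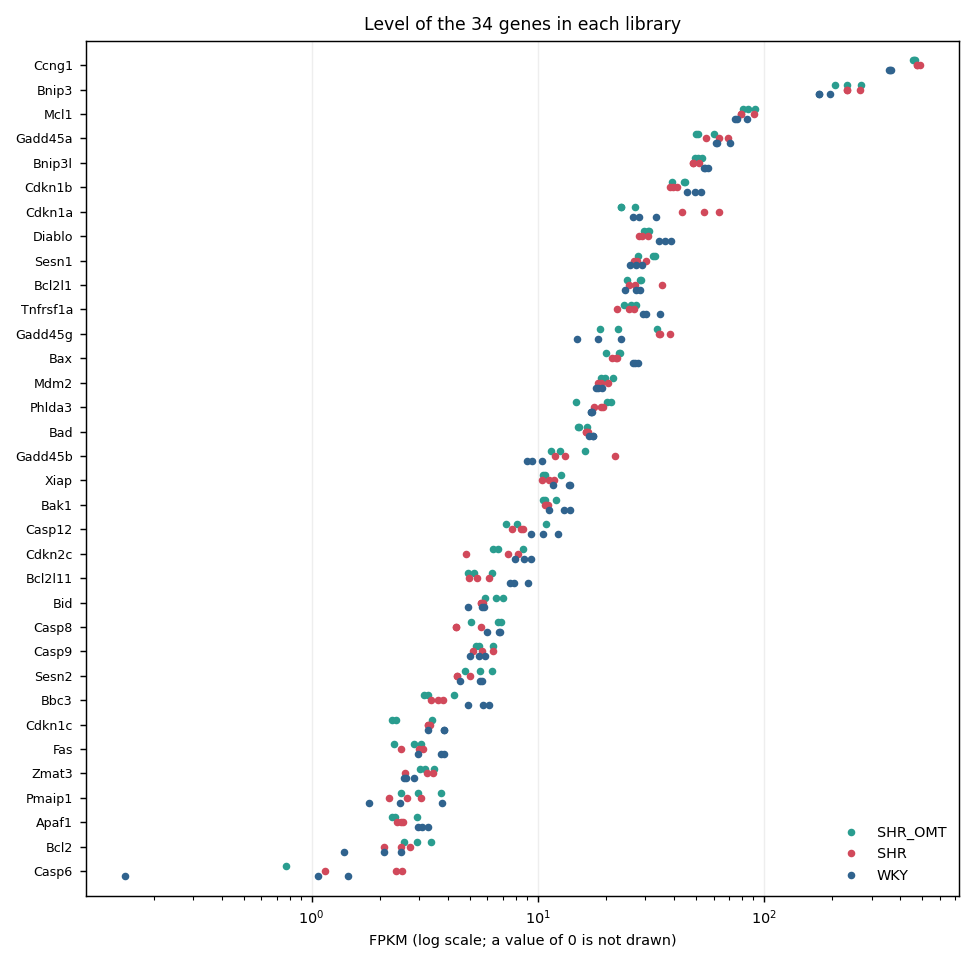
FPKM of each of the 34 genes in each library, on a log axis, with genes ordered by their mean; SHR_OMT points lie on the upper line of each gene, SHR on the middle and WKY on the lower. Ccng1 is at the top with a mean of 435 FPKM and Casp6 at the bottom with 1.05 FPKM; the 2 Casp6 values of 0 are not drawn.

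The first comparison, SHR against WKY, sets the hypertensive strain against the normotensive one without treatment. Cdkn1a, Gadd45g, Gadd45b, Ccng1 and Bnip3 rose in SHR, with log2 differences of 0.41 to 0.91, and Bbc3, Bcl2l11, Bax, Casp8, Diablo, Tnfrsf1a, Cdkn1b and Bnip3l fell by 0.16 to 0.51. By role, 3 of 8 growth arrest and stress genes rose and 0 fell, while 3 of 7 pro-apoptotic BCL2 family genes, 2 of 6 caspases and activators and 1 of 2 death receptors fell and 0 of each rose. The 13 of 34 genes called stand beside 33.9% of all genes tested, the 5 higher beside 10.8% and the 8 lower beside 23.1%, so the set as a whole was called about as often as the average gene. Its median log2 difference was −0.06, beside −0.08 for all genes tested. Groups did not overlap for 18 of the 34, beside 48.1% of all genes; 6 of them were higher, beside 15.1%, and 12 lower, beside 33%.

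Cdkn1a, the gene of p21, held 54.6, 63.3 and 43.4 FPKM in the SHR libraries, against 28.0, 26.4 and 33.4 FPKM in the WKY libraries. All SHR values lay above all WKY values. The means, 53.7 ± 9.98 FPKM in SHR and 29.3 ± 3.69 FPKM in WKY (SD, n = 3 each), gave a ratio of 1.84 and a log2 difference of 0.85 (SE 0.13, adjusted p = 0.00148). Of 10 glucocorticoid responsive genes 3 rose in the same comparison, among them Fkbp5 by 0.48 and Klf9 by 0.41. Of 16 clock genes 6 rose and 2 fell. Over all genes tested 10.8% were higher and 23.1% lower. The part of these genes in the Cdkn1a difference was not tested. The clock calls were unsteady, 1 to 7 higher and 0 to 3 lower over the 18 alternatives, with 1 or 2 higher when WKY replicate 1 or 3 or SHR replicate 1 or 3 was left out, and the lower genes, Arntl and Nfil3, each lost the call in 10 alternatives. The glucocorticoid count ran over 2 to 6, with 6 when SHR replicate 3 was left out. In bulk tissue more RNA per cell and more cells of a type that makes it cannot be told apart, here or in any comparison below.

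Of the Gadd45 genes, which encode small stress sensor proteins, Gadd45g differed most. It held 34.4, 38.7 and 34.7 FPKM in SHR, against 18.6, 15.0 and 23.4 FPKM in WKY, a log2 difference of 0.91 (SE 0.20, adjusted p = 0.00771) without overlap of the groups. Gadd45b held 21.97, 11.95 and 13.2 FPKM in SHR, against 9.49, 10.5 and 8.93 FPKM in WKY. SHR replicate 1 stood well above the others, and the log2 difference of 0.61 (adjusted p = 0.0406) became 0.35 (adjusted p = 0.0776) without it; the call was also lost without any 1 of the WKY libraries or SHR_OMT replicate 1 (adjusted p 0.0553 to 0.106). Gadd45a, the family member best known as a p53 target, was at 62.9 ± 6.96 FPKM in SHR and 64.9 ± 5.53 FPKM in WKY and was not called.

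Ccng1 was the tightest of the called genes. It held 479, 474 and 490.0 FPKM in SHR, against 360, 362 and 367 FPKM in WKY. Replicates within a group differed by a few percent while the groups were well separated, and the log2 difference was 0.41 (SE 0.039, adjusted p = 0.000119). The other growth arrest and stress genes were not called: Sesn1 and Sesn2, sestrins that restrain mTORC1, differed by 0.04 and −0.16, Zmat3, a zinc finger RNA-binding protein gene, by 0.15, and Phlda3, an inhibitor of Akt, by 0.11.

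For the 5 genes that rose in SHR, the 250 bases before the transcription start were read from the RefSeq promoters of build GRCr8, to show which short motifs lie there. Capitals mark a match to the p53 half-site consensus in Cdkn1a and Ccng1, and the E-box CACGTG, the element read by clock and Myc family factors, in the other 3 genes. The windows are chr20:7150682-7150931 on the plus strand for Cdkn1a and, on the minus strand, chr10:25684877-25685126 for Ccng1, chr17:13530352-13530601 for Gadd45g, chr7:9430719-9430968 for Gadd45b and chr1:203154963-203155212 for Bnip3.
Cdkn1a: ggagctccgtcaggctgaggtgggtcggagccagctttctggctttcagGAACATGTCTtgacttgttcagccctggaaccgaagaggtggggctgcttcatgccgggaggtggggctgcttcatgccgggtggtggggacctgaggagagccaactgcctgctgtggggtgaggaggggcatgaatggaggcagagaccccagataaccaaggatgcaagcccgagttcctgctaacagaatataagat
Ccng1: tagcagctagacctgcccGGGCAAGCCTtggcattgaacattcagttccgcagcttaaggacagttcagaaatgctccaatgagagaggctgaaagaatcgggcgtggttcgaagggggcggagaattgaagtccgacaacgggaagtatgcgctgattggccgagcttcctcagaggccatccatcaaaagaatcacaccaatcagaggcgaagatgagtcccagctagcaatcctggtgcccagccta
Gadd45g: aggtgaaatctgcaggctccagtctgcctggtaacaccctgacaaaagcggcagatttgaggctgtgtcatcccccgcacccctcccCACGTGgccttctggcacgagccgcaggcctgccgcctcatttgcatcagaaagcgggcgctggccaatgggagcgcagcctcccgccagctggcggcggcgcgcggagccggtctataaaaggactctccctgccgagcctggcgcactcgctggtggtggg
Gadd45b: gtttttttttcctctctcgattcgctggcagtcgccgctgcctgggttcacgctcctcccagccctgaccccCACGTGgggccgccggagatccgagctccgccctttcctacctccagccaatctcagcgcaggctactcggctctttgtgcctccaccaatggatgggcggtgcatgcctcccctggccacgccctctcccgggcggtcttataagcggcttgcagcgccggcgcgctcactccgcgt
Bnip3: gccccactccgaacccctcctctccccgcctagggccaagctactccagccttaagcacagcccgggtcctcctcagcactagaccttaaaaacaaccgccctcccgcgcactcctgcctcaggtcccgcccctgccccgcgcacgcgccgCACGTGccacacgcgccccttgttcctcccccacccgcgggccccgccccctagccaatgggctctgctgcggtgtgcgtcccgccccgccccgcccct

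The half-site begins 201 bases before the start in Cdkn1a and 232 bases before it in Ccng1. The E-box begins 163 bases before the start in Gadd45g, 178 in Gadd45b and 99 in Bnip3. On either strand, the half-site consensus matched in 6.64% of 33469 rat promoter windows of this length, and CACGTG, which reads alike on both strands, in 5.59%. Among the set, 27 genes had a promoter in the RefSeq table; 5 of them held the half-site, Gadd45a, Sesn1 and Cdkn2c besides the pair above, and 3 held CACGTG. Of the 8 genes that fell in SHR, 4 had a promoter in the table and 0 held either motif. The cyclic AMP element TGACGTCA, in 1.59% of windows, matched in 0 genes of the set, and the nuclear receptor half-site AGGTCA, in 14.1% of windows, matched in Gadd45a alone. A match is a run of letters in these windows and no measurement of binding.

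The receptors that send damaged mitochondria to autophagy differed in opposite directions. Bnip3, which low oxygen induces, held 234, 268 and 233 FPKM in SHR, against 175, 176 and 197 FPKM in WKY, and rose by 0.42 (SE 0.098, adjusted p = 0.0100). Bnip3l, also called Nix, held 48.5, 48.7 and 51.8 FPKM in SHR, against 54.9, 56.8 and 54.4 FPKM in WKY. Neither pair of groups overlapped, but the log2 difference of Bnip3l was only −0.16 (adjusted p = 0.0326), and its call did not hold under median-of-ratios scaling (−0.07, adjusted p = 0.318) or quantile normalization (−0.13, adjusted p = 0.0612), nor without any 1 of the WKY libraries or SHR replicate 1 or 2 (adjusted p 0.0560 to 0.0945).

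**Figure D2:**
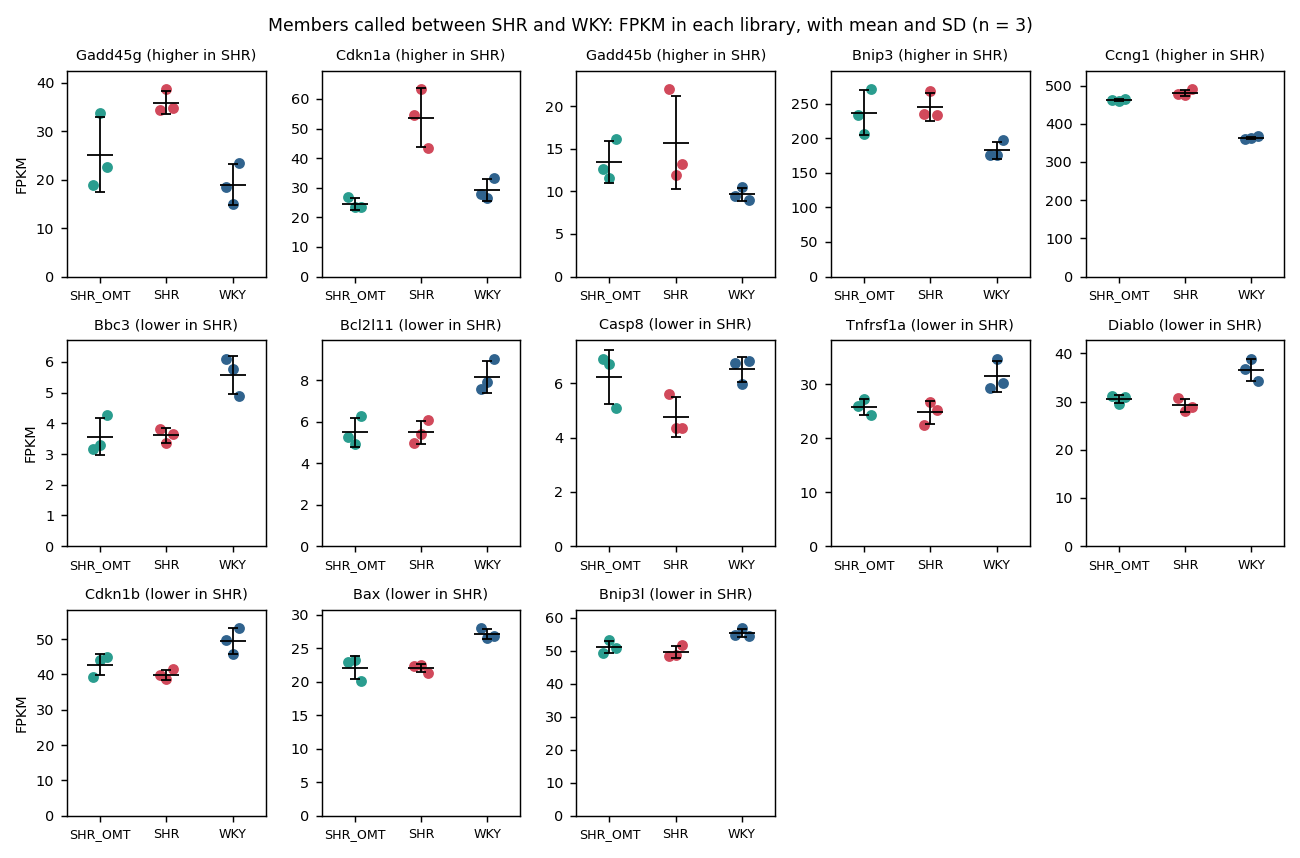
FPKM in each library of the 13 genes called between SHR and WKY, with the mean as a bar and the SD as whiskers (n = 3), groups in the order SHR_OMT, SHR, WKY and every axis starting at 0. The SHR_OMT values of Cdkn1a, 23.3 to 26.9 FPKM, lie near those of WKY; those of Casp8 overlap both other groups, and 2 of the 3 of Gadd45g lie within the WKY range.

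The pro-apoptotic BCL2 family genes that fell act at the outer mitochondrial membrane. Bbc3, the gene of PUMA, held 3.83, 3.36 and 3.64 FPKM in SHR, against 6.10, 5.76 and 4.90 FPKM in WKY, a log2 difference of −0.51 (SE 0.11, adjusted p = 0.00679). Bcl2l11, the gene of BIM, held 4.97, 5.41 and 6.07 FPKM in SHR, against 7.57, 7.90 and 9.03 FPKM in WKY, a difference of −0.50 (SE 0.10, adjusted p = 0.00527). For both genes every SHR library was below every WKY library.

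Bax, which forms the pore itself, held 22.3, 22.5 and 21.3 FPKM in SHR, against 27.9, 26.5 and 26.8 FPKM in WKY, and fell by 0.29 on the log2 scale (SE 0.062, adjusted p = 0.00741). The groups were narrow and lay well apart. Bak1, the other pore former, differed by −0.20 (adjusted p = 0.0850) and was not called. Bad, Bid and Pmaip1, the gene of NOXA, differed by −0.07, 0.05 and 0.01 and were not called either.

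The 3 anti-apoptotic genes of the family did not pass the test. Bcl2 was at 2.43 ± 0.318 FPKM in SHR and 1.99 ± 0.558 FPKM in WKY, Bcl2l1, the gene of BCL-XL, at 29.3 ± 5.60 and 26.6 ± 2.06 FPKM, and Mcl1 at 83.0 ± 6.18 and 78.4 ± 5.26 FPKM, SHR before WKY for each. The ratio of Bax to Bcl2, often read as a balance of death and survival genes, was 10.7, 9.07 and 7.83 in SHR, against 20.1, 10.6 and 12.8 in WKY. One SHR library lay just inside the range of WKY on the FPKM scale. As the difference of log2(FPKM + 1) of both genes it was 2.75 ± 0.17 in SHR and 3.25 ± 0.32 in WKY, a difference of −0.50 without overlap on that scale; the exact permutation test, both sides counted, gave p = 0.1, the smallest that 3 against 3 samples allow, and 0.15 adjusted over the 3 comparisons.

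Of the caspases and their activators, Diablo and Casp8 fell. Diablo, which frees caspases from Xiap, held 30.7, 28.1 and 28.9 FPKM in SHR, against 36.7, 38.9 and 34.3 FPKM in WKY, a difference of −0.31 (SE 0.058, adjusted p = 0.00345). Casp8, the initiator caspase of death receptors, held 5.59, 4.34 and 4.34 FPKM in SHR, against 6.74, 5.99 and 6.81 FPKM in WKY. Both genes were lower in every SHR library than in any WKY library. The Casp8 difference of −0.39 (adjusted p = 0.0328) became −0.31 under median-of-ratios scaling (adjusted p = 0.0680) and −0.27 under quantile normalization (adjusted p = 0.0964), and leaving out WKY replicate 1 or 3 or SHR replicate 2 or 3 also ended the call.

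Apaf1, the core of the apoptosome, differed by −0.24 (adjusted p = 0.0655) and Casp12, a caspase tied to the endoplasmic reticulum in rodents, by −0.34 (adjusted p = 0.0794); neither was called, although every SHR value of each lay below every WKY value. Casp9, which the apoptosome activates, was at 5.73 ± 0.602 FPKM in SHR and 5.46 ± 0.436 FPKM in WKY. Xiap, the caspase inhibitor, was at 11.2 ± 0.713 FPKM in SHR and 13.1 ± 1.25 FPKM in WKY (adjusted p = 0.104). Casp6, an executioner caspase, was near the limit of the table, at 2.37, 1.15 and 2.51 FPKM in SHR and 1.45, 0.15 and 1.07 FPKM in WKY, with overlap.

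Tnfrsf1a, the main receptor of tumour necrosis factor, held 22.4, 26.7 and 25.3 FPKM in SHR, against 29.4, 34.7 and 30.3 FPKM in WKY, and fell by 0.33 on the log2 scale (SE 0.083, adjusted p = 0.0138) without overlap. Fas, the other death receptor, was at 2.86 ± 0.327 FPKM in SHR and 3.51 ± 0.491 FPKM in WKY and was not called. Endothelial markers were lower in the same libraries: 7 of 8 fell, beside 23.1% of all genes tested. Their summed level was 501 to 557 FPKM in SHR and 689 to 809 FPKM in WKY, with none at 0. Of the 7 cardiomyocyte markers 3 rose, beside 10.8% of all genes tested, and 0 fell. The part of either cell type in the lower levels of the death genes was not tested.

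The kinase inhibitors did not move together. While Cdkn1a rose, Cdkn1b, the gene of p27, held 39.7, 38.6 and 41.5 FPKM in SHR, against 49.8, 45.8 and 53.1 FPKM in WKY, and fell by 0.30 on the log2 scale (SE 0.069, adjusted p = 0.00917). No SHR library reached the lowest WKY library. Cdkn1c, the gene of p57, differed by −0.11 and Cdkn2c, the gene of p18, by −0.33 (adjusted p = 0.150), and neither was called.

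Mdm2, the target by which p53 limits itself, held 18.5, 20.5 and 19.1 FPKM in SHR, against 18.5, 19.4 and 18.1 FPKM in WKY. These overlapped, and the 95% interval of the log2 difference ran over −0.09 to 0.19.

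Genes around the set, listed by pathway, moved in both directions. Each count stands beside 10.8% of all genes tested higher in SHR and 23.1% lower. Of 11 genes that control p53, 2 rose and 3 fell: Hipk2, a kinase of p53, was at 22.8 ± 2.81 FPKM in SHR and 11.6 ± 0.20 FPKM in WKY (0.91, adjusted p = 8.60e-05), while Mdm4, a p53 inhibitor related to Mdm2, and Atm, the kinase that senses DNA breaks, fell by 0.50 and 0.47. Rchy1, the gene of a p53 ubiquitin ligase, was the other that rose, by 0.15 (adjusted p = 0.0439), a call that 11 of 18 alternatives did not keep, among them leaving out any 1 SHR or WKY library or SHR_OMT replicate 1 or 3. Of 24 further genes listed as p53 targets, 4 rose and 6 fell. Sesn3, among the higher, was at 12.03 ± 1.12 FPKM in SHR and 6.59 ± 0.218 FPKM in WKY (0.78, adjusted p = 0.000194). Tigar and Cdip1 rose too, by 0.29 and 0.27. Among the lower were Tp53i11 (−0.63, adjusted p = 0.000837) and, at low levels, Ckap2 and Ddb2, with means of 1.01 and 2.45 FPKM in SHR and 2.27 and 3.96 FPKM in WKY. The lower count was 3 without SHR replicate 1 or WKY replicate 1. The median difference of the 24 genes was −0.06, beside −0.08 for all genes.

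Of 26 further caspase and death pathway genes, 3 rose and 8 fell, beside 10.8% of all genes tested higher and 23.1% lower. Tnfsf10, the gene of the death ligand TRAIL, was at 37.8 ± 2.30 FPKM in SHR and 63.0 ± 3.59 FPKM in WKY (−0.72, adjusted p = 0.000532), and Cflar, which restrains caspase 8, fell too, by 0.34. Those that rose were Fadd, by 0.55 (adjusted p = 0.00712), Dffa, which holds the apoptotic nuclease in check, by 0.53, and Aifm1 by 0.24. Of 8 other BCL2 family genes, Bcl2l13, a mitophagy receptor, alone rose, by 0.45.

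Of 12 other cell cycle genes, 1 rose and 4 fell, again beside 10.8% of all genes tested higher and 23.1% lower. The D cyclins that the inhibitors act on parted. Ccnd2 was at 44.7 ± 4.81 FPKM in SHR and 23.5 ± 0.942 FPKM in WKY (0.89, adjusted p = 5.49e-05). Ccnd1 was at 29.2 ± 3.40 FPKM in SHR and 44.8 ± 4.25 FPKM in WKY (−0.60, adjusted p = 0.00174). Cdk2, the kinase that p21 and p27 inhibit, fell by 0.34, and E2f1 by 0.56 at a level near 1 FPKM. Of 10 other mitophagy genes 3 rose and 0 fell: Sqstm1 by 0.24, Map1lc3a by 0.22 and Gabarapl1 by 0.17, calls that 3, 7 and 10 of 18 alternatives did not keep, several of them leaving out 1 library.

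The authors' deposited table gives its own log2 ratios and q-values for SHR over WKY. It has q under 0.05 for 7 of the 34 genes, 5 higher and 2 lower, each with the sign found here, and Bax, Bbc3, Bnip3l, Casp8, Tnfrsf1a and Diablo were called here but not in the authors' deposited table. All 5 genes that rose are thus called in both; of the 8 that fell, Cdkn1b and Bcl2l11 are. Over all genes the balance of calls depended on scaling: 1343 were higher and 2872 lower here, against 2033 and 1789 under median-of-ratios scaling and 1881 and 1812 under quantile normalization. Of the set, 5 genes were called higher and 6 lower under median-of-ratios scaling.

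The second comparison, SHR_OMT against SHR, asks what the treatment changed in the hypertensive strain. One gene of the 34 passed, and it was Cdkn1a, which fell to 0.456 of its level in untreated SHR. That is 1 of 34 beside 0.241% of all genes tested, 30 in number, and 1 lower beside 0.0883%; 0 of the 34 rose by limma, beside 0.153%, while 4 had an unadjusted p under 0.05 in either direction, beside 12.1% of all genes tested. The median log2 difference of the set was 0.01, beside 0.04 for all genes. The comparison shares its SHR libraries with the first, so the pair is not independent.

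Cdkn1a held 26.9, 23.3 and 23.4 FPKM in SHR_OMT, against 54.6, 63.3 and 43.4 FPKM in SHR. The highest treated library was far below the lowest untreated one. The means, 24.5 ± 2.03 FPKM in SHR_OMT and 53.7 ± 9.98 FPKM in SHR, gave a ratio of 0.456 and a log2 difference of −1.09 (SE 0.13, 95% interval −1.39 to −0.79, adjusted p = 0.0162). The call was lost in 7 of 18 alternatives, each time at an adjusted p just above the threshold: it was 0.0542 to 0.0630, with differences of −1.15 to −0.96, without SHR replicate 1 or 2 or any 1 of the SHR_OMT libraries, 0.0547 with a replicate block and 0.0510 without the filter on low values. The authors' deposited table gives a log2 ratio of −1.19 with q = 1.71e-15 for Cdkn1a, and no other gene of the set has q under 0.05 there.

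**Figure D3:**
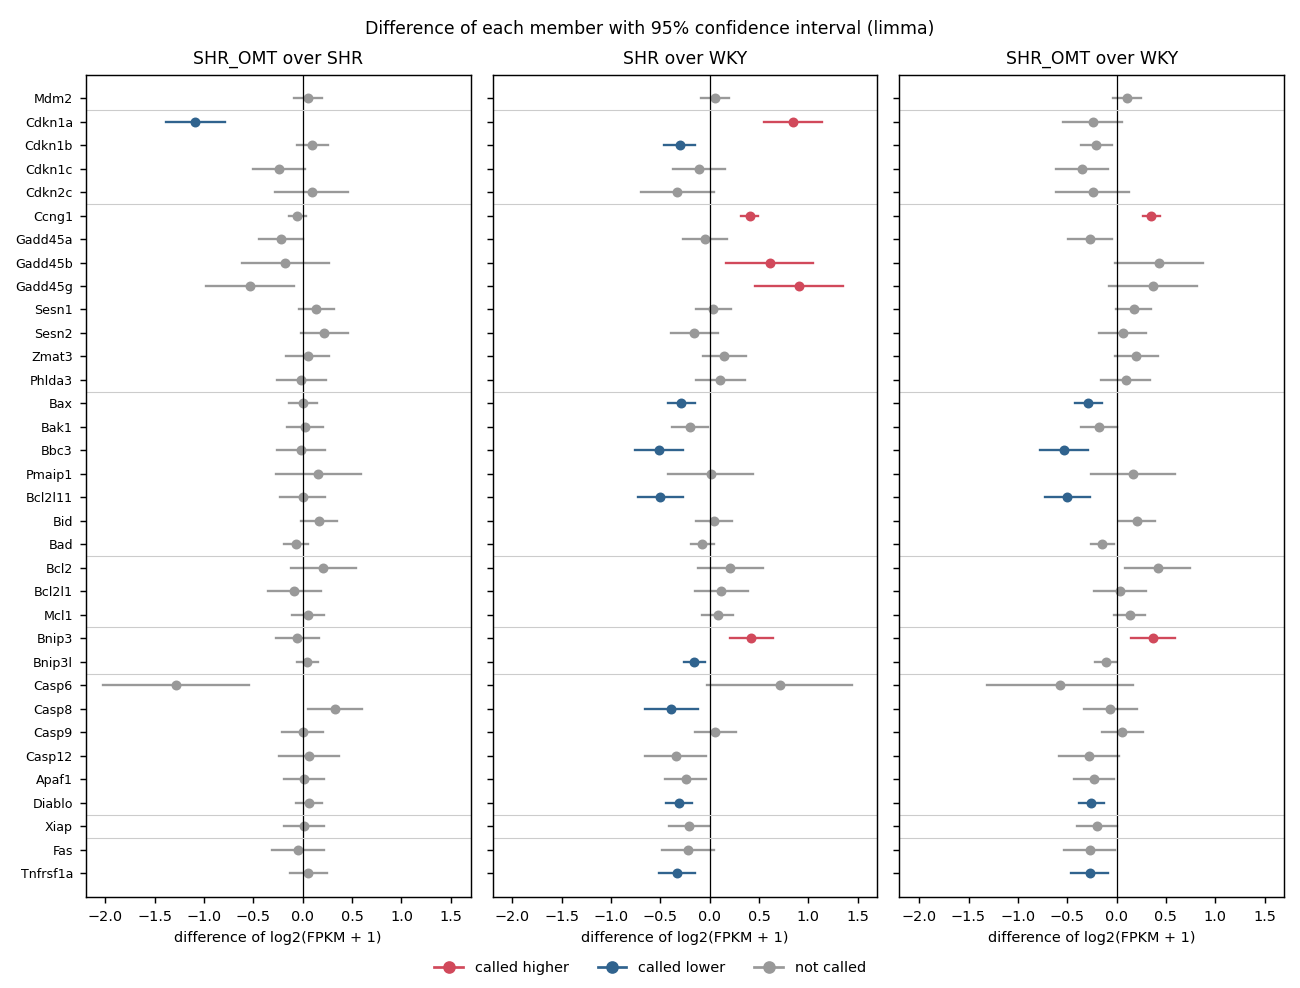
Log2 difference of each gene (points) with its 95% confidence interval (lines) in the 3 comparisons, grouped by role; red marks genes called higher, blue genes called lower and grey genes not called. In SHR_OMT over SHR, Cdkn1a at −1.09 is the one coloured point; Casp6, listed at 0 in 2 SHR_OMT libraries, has the widest interval.

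No other growth arrest gene of the set passed, nor did Mdm2. Gadd45g held 19.0, 33.9 and 22.7 FPKM in SHR_OMT, against 34.4, 38.7 and 34.7 FPKM in SHR. One treated library came within 1 FPKM of the untreated ones while the others were near the WKY range, and the difference of −0.54 was not called (SE 0.20, adjusted p = 0.344). Ccng1 held 463, 459 and 465 FPKM in SHR_OMT, against 479, 474 and 490.0 FPKM in SHR. Those groups did not overlap, yet the difference was only −0.06 (adjusted p = 0.612). Mdm2 held 21.6, 19.8 and 19.0 FPKM in SHR_OMT and differed by 0.06, with an interval of −0.09 to 0.20.

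Between SHR_OMT and SHR the groups did not overlap for 5 of the 34 genes, Bid higher and Cdkn1a, Casp6, Gadd45g and Ccng1 lower, beside 17.2% of all genes tested, 13.2% higher and 3.99% lower.

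For the apoptosis genes that were low in SHR no change with treatment was shown. Bax held 22.9, 23.3 and 20.1 FPKM, Bcl2l11 5.25, 4.94 and 6.29 FPKM and Bbc3 3.15, 3.29 and 4.26 FPKM in SHR_OMT. These overlapped the SHR libraries, with log2 differences of 0.00, 0.00 and −0.02 and 95% intervals of −0.14 to 0.14, −0.23 to 0.23 and −0.27 to 0.22. Casp8, at 6.90, 6.70 and 5.09 FPKM in SHR_OMT, was the one apoptosis gene low in SHR whose difference was sizeable, at 0.33. It was not called (adjusted p = 0.341). Diablo held 31.1, 29.5 and 30.9 FPKM and Tnfrsf1a 25.9, 27.3 and 24.2 FPKM in SHR_OMT. Both overlapped SHR, with differences of 0.06 each. Bcl2 held 2.94, 3.36 and 2.57 FPKM in SHR_OMT, against 2.09, 2.48 and 2.72 FPKM in SHR, with overlap. The log2 ratio of Bax to Bcl2 was 2.55 ± 0.06 in SHR_OMT and 2.75 ± 0.17 in SHR (−0.20, exact permutation p = 0.2, adjusted 0.2).

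Casp6 was listed at 0.77, 0 and 0 FPKM in SHR_OMT, against 2.37, 1.15 and 2.51 FPKM in SHR. Every treated value lay below every untreated one at a level near the lowest in the table, and the test did not pass (adjusted p = 0.183). Bnip3, at 234, 207 and 271 FPKM in SHR_OMT, and Bnip3l, at 49.5, 53.2 and 51.0 FPKM, overlapped their SHR values. Gadd45b, at 12.6, 11.5 and 16.2 FPKM in SHR_OMT, and Cdkn1b, at 39.3, 44.2 and 44.9 FPKM, overlapped too.

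Around the set, 0 of the 11 p53 control genes, 24 further genes listed as p53 targets, 8 other BCL2 family genes, 26 caspase and death pathway genes, 12 cell cycle genes and 10 mitophagy genes were called between SHR_OMT and SHR. Of all genes tested only 0.241% were called, and at that share lists of this size would hold few or no calls. Sesn3 was at 10.1 ± 0.956 FPKM in SHR_OMT and 12.03 ± 1.12 FPKM in SHR (−0.23, adjusted p = 0.338). Ccnd1 was at 37.7 ± 3.07 FPKM in SHR_OMT and 29.2 ± 3.40 FPKM in SHR (0.36, adjusted p = 0.205). Neither change passed.

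Clock genes differed in the same libraries. Of 16 looked at, 7 rose and 2 fell, with Arntl, the gene of the clock activator BMAL1, at 5.85 ± 0.870 FPKM in SHR_OMT and 18.7 ± 0.658 FPKM in SHR (−1.53, adjusted p = 0.000588), and Dbp, an output of that activator, at 77.1 ± 14.7 and 16.4 ± 0.924 FPKM (2.15, adjusted p = 0.00298), in that order of groups. Npas2, the other gene that fell, by 0.83, lost its call in 9 of 18 alternatives, among them leaving out any 1 SHR library, SHR_OMT replicate 1 or 3 or WKY replicate 1 or 2. The count of clock genes that rose was 3 without SHR replicate 2 or SHR_OMT replicate 1 and 4 without SHR_OMT replicate 3. Of 10 glucocorticoid responsive genes 0 were called, beside 0.241% of all genes tested. Schwann cell markers summed to 19.8 to 25.0 FPKM in SHR_OMT and 9.51 to 13.0 FPKM in SHR, with 0 of 5 called and none at 0. The part of any of these in the Cdkn1a difference was not tested.

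The third comparison, SHR_OMT against WKY, shows which strain differences were also present in treated animals. It shares libraries with both others and is no independent evidence of either. Of the 34 genes 7 were called, beside 24.9% of all genes tested: Ccng1 and Bnip3 rose, beside 10.2%, and Bcl2l11, Bbc3, Bax, Diablo and Tnfrsf1a fell, beside 14.6%. The median log2 difference was −0.13, beside −0.04 for all genes, and 16 genes had groups that did not overlap, beside 42.7% of all genes.

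Cdkn1a was among the genes not called. Treated libraries held 26.9, 23.3 and 23.4 FPKM and WKY libraries 28.0, 26.4 and 33.4 FPKM. The highest treated value lay inside the WKY range, the difference was −0.24 and its 95% interval of −0.54 to 0.06 (adjusted p = 0.209) includes a modest fall below WKY as well as no difference. Ccng1, by contrast, was at 462 ± 2.86 FPKM in SHR_OMT and 363 ± 3.70 FPKM in WKY, higher by 0.35 (adjusted p = 0.000345). Bnip3 was at 237 ± 32.1 FPKM in SHR_OMT and 183 ± 12.6 FPKM in WKY, higher by 0.37 (adjusted p = 0.0241), a call lost without WKY replicate 1 or 2 or SHR_OMT replicate 1 or 3 (adjusted p 0.0622 to 0.0811).

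Of the 6 death genes that were low in SHR, 5 were also called below WKY in treated animals; Casp8 was not, at 6.23 ± 0.992 FPKM in SHR_OMT and 6.51 ± 0.455 FPKM in WKY (−0.06, adjusted p = 0.734). Bbc3 was at 3.57 ± 0.605 FPKM in SHR_OMT and 5.59 ± 0.618 FPKM in WKY (−0.53, adjusted p = 0.00769), Bcl2l11 at 5.49 ± 0.707 and 8.17 ± 0.766 FPKM (−0.50, adjusted p = 0.00737) and Bax at 22.1 ± 1.76 and 27.1 ± 0.773 FPKM (−0.29, adjusted p = 0.0102), SHR_OMT before WKY. Diablo differed by −0.25 (adjusted p = 0.0127). Tnfrsf1a fell by 0.27 (adjusted p = 0.0383), which 8 of 18 alternatives did not keep (adjusted p up to 0.115), among them leaving out WKY replicate 2 or 3, SHR replicate 3 or SHR_OMT replicate 1 or 3. Endothelial markers were again lower, 6 of 8 falling, with sums of 562 to 580 FPKM in SHR_OMT and 689 to 809 FPKM in WKY. Of the 7 cardiomyocyte markers 3 rose and 1 fell. Over all genes tested 10.2% were higher and 14.6% lower. The part of either cell type was not tested.

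Bcl2 was the anti-apoptotic gene furthest from WKY, with 2.94, 3.36 and 2.57 FPKM in SHR_OMT and 1.39, 2.49 and 2.10 FPKM in WKY. The groups did not overlap, but the difference of 0.42 was not called (adjusted p = 0.0659; called in 4 of 17 alternatives). The Bax to Bcl2 ratio was 7.80, 6.92 and 7.81 in SHR_OMT, against 20.1, 10.6 and 12.8 in WKY. All treated libraries were below all WKY libraries; on the log2 scale the difference was −0.70 (exact permutation p = 0.1, the smallest possible, adjusted 0.15).

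Over the 3 groups, the 13 genes called in the first comparison thus followed a few patterns. Ccng1, Bnip3, Bbc3, Bcl2l11, Bax, Diablo and Tnfrsf1a were called against WKY in both SHR and SHR_OMT with the same sign. Cdkn1b, Bnip3l, Casp8, Gadd45b and Gadd45g were called only in SHR against WKY. Their SHR_OMT against SHR differences, 0.10, 0.04, 0.33, −0.18 and −0.54, did not pass, so a change with treatment was not shown for them. Against WKY, SHR_OMT differed without overlap by −0.21 for Cdkn1b (adjusted p = 0.0552), −0.11 for Bnip3l and 0.43 for Gadd45b. With overlap, it differed by 0.37 for Gadd45g and −0.06 for Casp8. None of these differences from WKY was called. Cdkn1a alone among the 34 was called in SHR against WKY and, with the opposite sign, in SHR_OMT against SHR.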

How the data were processed

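Left ventricles of SHR_OMT, SHR and WKY rats (3 samples each) were sequenced on the BGISEQ-500 from 200 ng of Trizol-extracted total RNA, per the labels' protocols. Bowtie2, RSEM 1.3.1, DESeq2 1.4.5 and build Rnor_6.0 stand in the submitters' processing notes, without order or settings. The deposited table gives FPKM per gene and sample, per the file headers; the authors' log2 ratios and q-values in it were used for comparison only. Columns were matched to samples by name.

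Of 22864 rows, 3570 held no values, leaving 19294; 27 symbols turned into dates were restored by Gene ID. Depth is unknown: low values did not step by whole reads (25.0% of 164 ratios lay within 0.1 of one, and 20% would under even spacing), no count model was run and no counting interval is given. RSEM divides reads between similar genes.

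The 12451 genes averaging 1 FPKM or more were compared as log2(FPKM + 1) by limma 3.58.1 (R 4.3.3) in a single model of the 3 groups with a mean-variance trend, both directions counted, Benjamini-Hochberg adjusted over them all, threshold 0.05. The model was run on simulated data, where the required recovery covered only changes larger than any called in the set. Bax to Bcl2 was compared by exact permutation (scipy 1.17.1). A further gene of the listing is not reported here; the others are all named. Values in all samples are given for genes called in the first or second comparison and for Mdm2, Bax, Bcl2, Bnip3 and Bnip3l, and Casp6 was added after its values were seen. From the neighbouring lists, up to 3 called genes per direction with the smallest p could be named. The genes, lists and tests were chosen with earlier results of these data known. Promoters came from RefSeq (GRCr8), which differs from the authors' build.

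Alternatives changed the pseudocount to 0.1, dropped the filter or raised it to 5 FPKM, scaled by median of ratios or quantiles, fitted only the 2 groups in question, weighted samples, dropped the variance trend, took the replicate number as a block, left out each of the 9 samples, or, for counts, asked for a log2 difference of at least 0.5. Their use on genes of the neighbouring lists was added after seeing the data.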

Additional observations from a re-analysis of the deposited data

How the results depend on the processing

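No gene of the set or of the neighbouring lists that was called changed direction under any of the alternatives run. In SHR against WKY, Cdkn1a, Ccng1, Gadd45g, Bnip3, Bcl2l11, Bax, Diablo, Cdkn1b and Tnfrsf1a were called in all 18 alternatives and Bbc3 in the 17 that held it, while Bnip3l lost its call in 10, Gadd45b in 9 and Casp8 in 7. In SHR_OMT against SHR the Cdkn1a call was lost in 7 of 18.

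Asking for a log2 difference of at least 0.5 left 3 genes higher and 1 lower in SHR against WKY, and 0 higher and 1 lower in SHR_OMT against WKY. In SHR_OMT against SHR the count of lower genes, 1, became 0 without the filter on low values, which tests more genes. In SHR_OMT against WKY, 4 genes were higher under median-of-ratios scaling and 4 under quantile normalization, against 2, and 8 were lower with sample weights, against 5; the cause was not tested. The set's median log2 difference moved to 0.0278 (median-of-ratios) and 0.00336 (quantile) in SHR against WKY and to −0.0253 and −0.0319 in SHR_OMT against SHR, as scaling moved the median of all genes to about 0.

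Leaving out 1 sample at a time gave 4 to 5 higher and 6 to 10 lower genes in SHR against WKY, 0 to 1 lower in SHR_OMT against SHR, and 1 to 3 higher and 4 to 8 lower in SHR_OMT against WKY. The medians ran over −0.119 to −0.0396, 0.00937 to 0.0521 and −0.140 to −0.111, and the Bax to Bcl2 differences over −0.63 to −0.32, −0.29 to −0.12 and −0.84 to −0.52. Counts over all genes in SHR_OMT against SHR ran over 6 to 33 calls, beside 30.

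No sign was seen that replicate numbers pair the samples, though 3 samples a group cannot show that pairing was absent. Deviations from the group means, taken across genes, correlated at −0.11 to 0.03 between same-numbered samples of different groups. Between samples of other numbers they correlated at −0.08 to 0.07. In 4 of 18 pairings of a sample with another group, its own number correlated best. With the replicate block the Cdkn1a difference of −1.09 in SHR_OMT against SHR had an adjusted p of 0.0547, giving 0 lower genes, and 14 genes were called over the whole table; in SHR against WKY 5 genes of the set were higher and 8 lower. With 3 samples a group and no read counts, the intervals of low genes such as Casp6 and Bcl2 were wide.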
